A study of Mus musculus with 16 samples.

Results

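The type I keratins examined here are 7 genes of mouse chromosome 11, namely Krt10, Krt14, Krt15, Krt17, Krt19, Krt20 and Krt23. They were taken by gene symbol from a table of TPM values, in which each library's transcripts are scaled for length and to a fixed total, and all 7 were among its 5921 rows. Of the 7, Krt19 and Krt20 could be read, and Krt10, Krt14, Krt15, Krt17 and Krt23 were too low to read. A keratin was called too low where its mean over the 16 libraries was under 1 TPM. On either side of that limit lay Krt20, at a mean of 5.13 TPM, and Krt10, at 0.735 TPM. The 7 genes were chosen by symbol with the TPM values of knockout against control in each line already known, so the keratins' differences in those comparisons are a description with no test.

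RNA was sequenced from the ventricles of mouse embryos at E11.5, with 4 libraries in each of 4 groups. Atf4, the gene of a stress-response transcription factor, was deleted with Xmlc2-Cre, a transgene that directs Cre recombinase to cardiomyocytes, so other cells of the ventricle were not its target. The exon 2-3 line had exons 2 and 3 of Atf4 flanked by loxP sites and formed batch 1. The exon 2 line had exon 2 flanked and formed batch 2. Each line had a conditional knockout (cKO) group and its own control group. No drug was given to any group. Line and batch cannot be told apart. Which Atf4 alleles the controls had, and whether Cre was present in them, is not in the labels, and the genotype entry reads C57BL/6 WT for all 16 samples, cKO included. The labels call the replicates biological and the tissue dissected per embryo, but they name no litter.

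Keratins are the intermediate filament proteins of epithelial cells. A filament is built from pairs of an acidic type I keratin and a basic type II keratin, and it is anchored at desmosomes and at contacts with the basement membrane. In mouse nearly all type I genes lie in a cluster on chromosome 11, and the type II genes lie on another chromosome. The ventricle of the early embryo consists mainly of cardiomyocytes, endocardium and an epicardial covering, and the epicardium is the epithelial layer among these.

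The table was held for chromosomes 1, 10 and part of 11. Its rows added up to 15.2% to 17.1% of the TPM total of a library. TPM keeps no depth, so the reads behind a value are unknown, and no counting interval is given. None of 18 listed type II keratins was among the rows, so the partners of Krt19 and Krt20 were not analysed here, and neither was Atf4. Libraries of a group correlated with each other at Pearson's r between 0.982 and 0.992 on log2(TPM + 1) across genes, which are not independent replicates. Cardiomyocyte markers were high in all groups: the 6 of 14 listed markers held summed to between 12510 and 18467 TPM per library. These are markers of the labelled tissue, while the extraction text names cultured cortical neurons.

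All 7 genes lie on the minus strand of chromosome 11 (coordinates on GRCm38.p6). Krt10 spans 99385254 to 99397449, Krt20 spans 99428385 to 99438153 and Krt23 spans 99477973 to 99493120. Toward the other end of the cluster, Krt15 spans 100131759 to 100135949, Krt19 spans 100140810 to 100145926, Krt14 spans 100203162 to 100207510 and Krt17 spans 100256215 to 100261029. No other row overlapped any of them. Their coding sequences (GENCODE M21) ran from 1209 bases in Krt19 to 1683 bases in Krt10. Krt19 had 6 exons, against 8 in each of the other 6 genes, and its protein is known for lacking most of the tail domain that other keratins carry.

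Whether reads can be told apart between these genes bears on the low values. For each keratin the longest protein-coding transcript was used. Of all 31-base stretches in that of Krt14, 29.1% also occurred in a transcript of another gene, most of them in Krt16 (18.2%). For Krt17 the share was 15.8%, most of it shared with Krt14 (11.8%). It was 4.26% for Krt10, 3.89% for Krt15 and 0.517% for Krt19, and it was 0 for Krt20 and Krt23. The coding sequences of Krt14 and Krt17 were 84.1% identical, those of Krt14 and Krt16 86.5%, and those of Krt19 and Krt20 63.4%. The longest run shared by the coding sequences of Krt14 and Krt17, 71 bases, is shown with its aligned counterparts to make this visible, read 5′ to 3′ on the coding strand of GRCm38. Capitals mark bases that differ from Krt14.
Krt14, chr11:100204114-100204184: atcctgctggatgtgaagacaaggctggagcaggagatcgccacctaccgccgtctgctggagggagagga
Krt17, chr11:100257439-100257509: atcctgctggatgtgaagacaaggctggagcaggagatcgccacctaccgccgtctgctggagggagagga
Krt16, chr11:100246616-100246686: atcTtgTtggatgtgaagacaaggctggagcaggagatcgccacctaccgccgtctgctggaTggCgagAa
Krt15, chr11:100132997-100133067: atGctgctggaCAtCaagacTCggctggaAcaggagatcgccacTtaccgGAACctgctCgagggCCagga
Krt19, chr11:100140953-100141023: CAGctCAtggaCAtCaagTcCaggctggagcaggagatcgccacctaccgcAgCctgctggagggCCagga
Krt16 differed from Krt14 at 5 of the 71 bases, Krt19 at 14 and Krt15 at 15. Krt10, Krt20 and Krt23 had no gap-free counterpart in the alignment. How reads from shared stretches were assigned is not stated, so the values of Krt14 and Krt17 are uncertain as well as low.

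Krt19, the small keratin of simple epithelia, made up 92.9% of the summed TPM of the 7 keratins. Its mean over the 16 libraries was 89.8 TPM, above 95.4% of the rows, and the median of the genes tested was 15.9 TPM. In the exon 2-3 controls the 4 libraries had 95.0, 98.5, 81.7 and 88.6 TPM of Krt19, and in the exon 2-3 cKO they had 126, 112, 134 and 114 TPM. Every exon 2-3 cKO library lay above every exon 2-3 control. In RNA of whole tissue, a change in the number of cells of a type and a change in RNA per cell cannot be told apart. Krt19 in the exon 2 controls stood at 76.7, 78.8, 82.9 and 69.4 TPM. Their cKO libraries had Krt19 at 70.7, 74.5, 75.2 and 58.5 TPM. These groups overlapped, although all 4 exon 2 cKO libraries lay under the mean of their controls.

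By group mean, Krt19 was highest in the exon 2-3 cKO, at 121 ± 10.3 TPM (SD, n = 4), followed by the exon 2-3 controls at 90.9 ± 7.42 TPM, the exon 2 controls at 76.9 ± 5.65 TPM and the exon 2 cKO at 69.7 ± 7.74 TPM. Of the neighbours in that order, the exon 2-3 cKO and its controls did not overlap. The control groups overlapped by 1 library, with the lowest exon 2-3 control at 81.7 TPM and the highest exon 2 control at 82.9 TPM. The exon 2 controls and their cKO overlapped.

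Krt20, a keratin of intestinal lining, bladder surface cells and Merkel cells, was much lower, with a mean of 5.13 TPM, above 66.3% of the rows. In the exon 2-3 controls the 4 libraries had 4.87, 5.55, 5.11 and 4.91 TPM of Krt20. In the exon 2-3 cKO they had 7.03, 6.00, 7.45 and 7.04 TPM. As for Krt19, no cKO library reached down to the controls. The exon 2 controls had 4.17, 4.17, 4.38 and 3.71 TPM of Krt20, and the exon 2 cKO had 4.59, 4.67, 4.31 and 4.13 TPM. These groups overlapped, with all 4 cKO libraries above the control mean. The group means of Krt20 ran from 6.88 ± 0.620 TPM in the exon 2-3 cKO through 5.11 ± 0.313 in the exon 2-3 controls and 4.42 ± 0.247 in the exon 2 cKO to 4.11 ± 0.280 in the exon 2 controls (SD, n = 4 each). Only the last neighbours in that order overlapped in their libraries. The order of the exon 2 groups was thus opposite for Krt19 and Krt20.

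**Figure D1:**
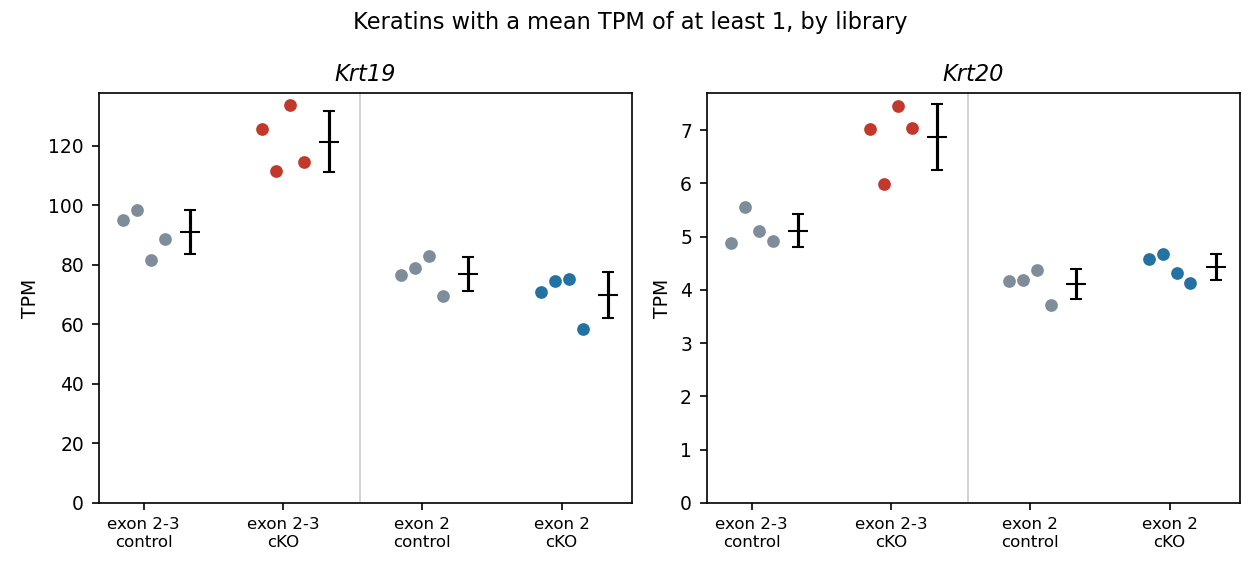
TPM of Krt19 and Krt20 in each of the 16 libraries, by group, with points for libraries and bars for the group mean and SD. The exon 2-3 cKO libraries (112 to 134 TPM of Krt19, 6.00 to 7.45 TPM of Krt20) stand above all other libraries for both genes.

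Within the exon 2-3 line, the mean of Krt19 in the cKO was 1.33 times that of the controls, a log2 difference of 0.41 (moderated SE 0.077), and for Krt20 the ratio was 1.35, a log2 difference of 0.36 (SE 0.087). Differences are of log2(TPM + 1), which understates changes of low genes. In this comparison 6.72% of the 2620 genes tested passed an adjusted p of 0.05 (limma, Benjamini-Hochberg) and 4.16% passed it as higher in the cKO. No call is given for the keratins here, since they were listed with this contrast known. The split of all calls moved with the scaling, from 109 higher and 67 lower to 157 and 154 after quantile normalisation and 142 and 201 after centring on the library median. For 9.24% of the genes every cKO library lay above every control, as it did for Krt19 and Krt20, and nothing is read from this for the keratins. Of the genes tested, 95.1% had a smaller signed difference than Krt19 and 93.6% a smaller one than Krt20, and the median over all genes was 0.03.

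With 1 library of the line left out at a time, the log2 difference of Krt19 was between 0.36 and 0.45 and that of Krt20 between 0.33 and 0.42.

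Within the exon 2 line, Krt19 differed by -0.14 on the log2 scale (SE 0.086) and Krt20 by 0.09 (SE 0.091), with ratios of means of 0.907 and 1.08. In this comparison 0.0763% of the genes tested passed the adjusted p. The signed difference of Krt19 exceeded that of 8.70% of the genes tested, and that of Krt20 exceeded 87.6%. The difference between the lines in the cKO effect on either gene was not tested.

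Krt19 relative to Krt20 gives a value that any common scaling of a library leaves as it is. Krt19 was 17.8 ± 1.44 times as high as Krt20 in the exon 2-3 controls and 17.7 ± 0.997 times in the exon 2-3 cKO (SD, n = 4), with ranges of 15.98 to 19.5 and 16.3 to 18.6. The ratio was thus at the same level in both groups of that line, within the spread of the libraries. The ratio was 18.7 ± 0.249, from 18.4 to 18.9, in the exon 2 controls and 15.7 ± 1.35, from 14.2 to 17.4, in the exon 2 cKO, with no overlap. This ratio was computed after the levels had been seen. Ratios of other genes were not computed beside it, so nothing is read from the separation in the exon 2 line.

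The comparison of the control groups was not named when the genes were listed, and it was tested. However, its libraries are the control libraries of the comparisons already known then. The p-values of the keratins here are therefore a description. Both readable keratins were higher in the exon 2-3 controls. Krt19 differed by 0.24 on the log2 scale (SE 0.086, limma adjusted p 0.0284), and all 4 exon 2-3 control libraries lay above the exon 2 control mean. Krt20 differed by 0.26 (SE 0.080, limma adjusted p 0.0132) with no overlap between the groups. In this comparison 52.6% of the genes tested passed, 14.4% as higher, and 12.9% had every exon 2-3 control above every exon 2 control, so a call here is common. The split was 378 higher and 999 lower, and it became 530 and 798 after quantile normalisation and 729 and 534 after centring on the library median. The median over all genes was -0.14, and the keratins lay on the other side of it, above 84.5% of the genes tested for Krt19 and 85.4% for Krt20. After that centring, the median over all genes became 0.04 and the differences became 0.42 for Krt19 and 0.44 for Krt20. Krt20 kept its call in all 14 alternatives. Krt19 lost it with no filter on low values and without any one of exon 2-3 control replicates 1 and 2 or exon 2 control replicates 1 and 4, with limma adjusted p between 0.0526 and 0.0940 (range over all 14 alternatives 0.000502 to 0.0940). Batch and line cannot be told apart in these differences.

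The low keratins were close to the floor of the table. Krt10, a keratin of the differentiated layers of epidermis, had a coefficient of variation of 11.2% over the 16 libraries, against 24.1% for Krt19 and 22.6% for Krt20. That measure includes the shifts between groups. Within each group, the SD of Krt10 was larger relative to its mean than those of Krt19 and Krt20. In the exon 2-3 controls, for example, Krt10 was at 0.729 ± 0.0908 TPM, Krt19 at 90.9 ± 7.42 and Krt20 at 5.11 ± 0.313. The exon 2-3 controls had 0.684, 0.835, 0.629 and 0.767 TPM of Krt10 and the cKO 0.618, 0.738, 0.746 and 0.834 TPM. The exon 2 controls had 0.860, 0.711, 0.806 and 0.758 TPM of Krt10 and the cKO 0.802, 0.589, 0.701 and 0.674 TPM. Groups overlapped in both lines, and Krt10 had a value above 0 in all 16 libraries.

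Krt17, an inducible keratin of hair follicles, periderm and wounded epidermis, reached 1 TPM in 1 library, exon 2 cKO replicate 3 at 1.10 TPM. Its exon 2-3 controls had 0.448, 0.872, 0.826 and 0.693 TPM, and the exon 2-3 cKO had 0.189, 0.422, 0.272 and 0.613 TPM. All 4 cKO libraries were under the control mean, the groups overlapped, and the ratio of means was 0.527. The exon 2 controls had 0.495, 0.727, 0.666 and 0.789 TPM of Krt17, and the cKO had 0.310, 0.625, 1.10 and 0.307 TPM, again overlapping. The log2 difference of Krt17 in the exon 2-3 line was -0.32 with a pseudocount of 1 and -0.82 with a pseudocount of 0.1.

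Krt14, the type I keratin of basal keratinocytes, ranged from 0.0966 to 0.679 TPM in the exon 2-3 cKO and from 0.249 to 0.550 TPM in its controls. It ranged from 0.0844 to 0.333 TPM in the exon 2 cKO and from 0.120 to 0.504 TPM in its controls. Krt15, also of basal keratinocytes and of the hair follicle bulge, was listed at 0 in 6 of 16 libraries and never exceeded 0.178 TPM. Krt23 was listed at 0 in 3 libraries and never exceeded 0.168 TPM. For all 3 genes the cKO and control libraries overlapped in both lines. At these levels a difference between groups could not be read in any of the 5 low keratins, and none of their control groups stood apart either.

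**Figure D2:**
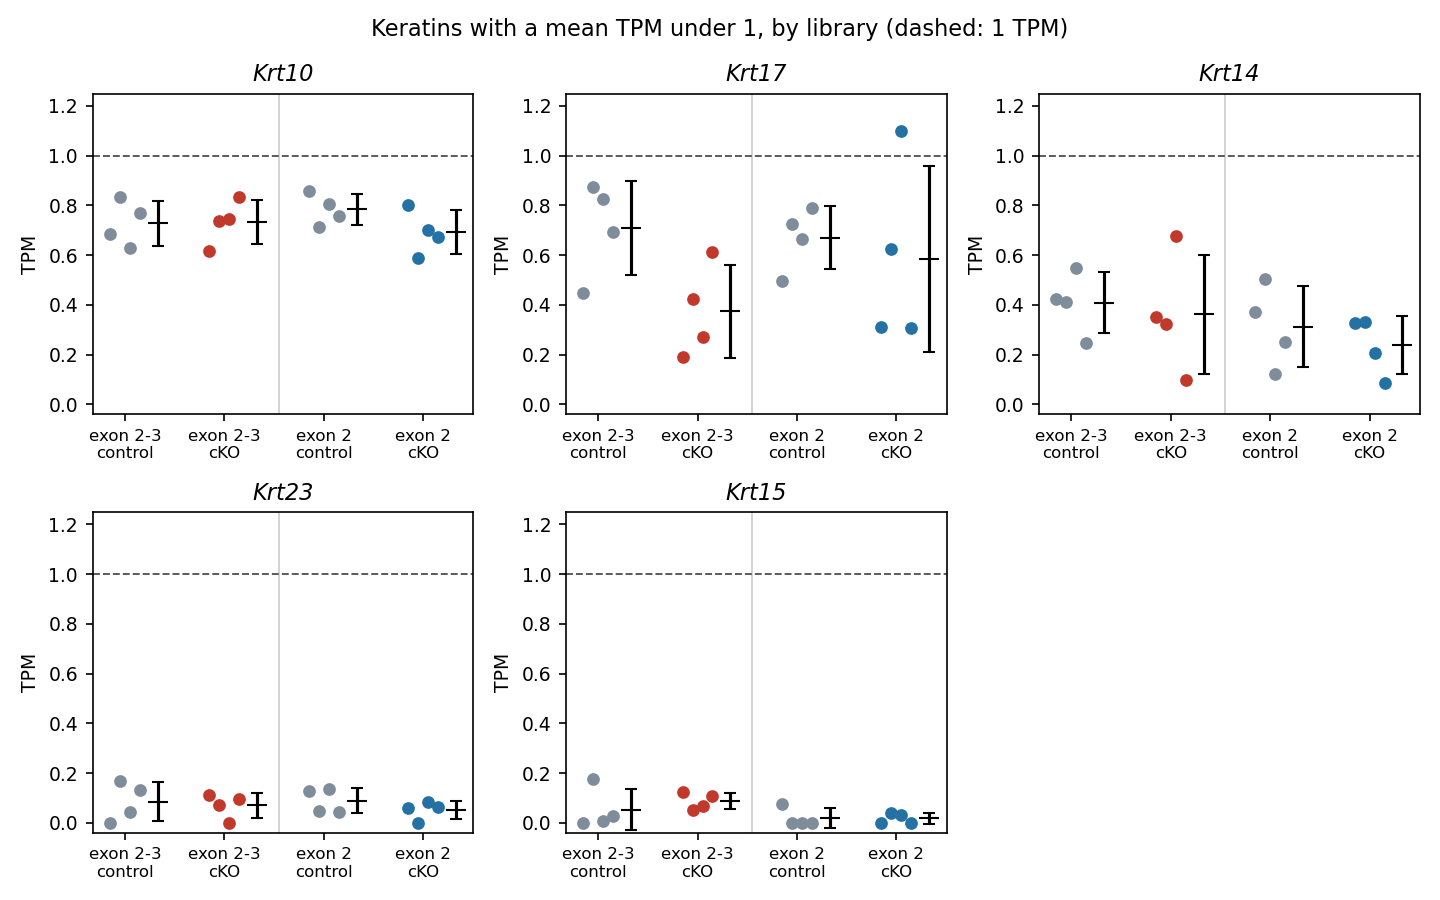
TPM of Krt10, Krt14, Krt15, Krt17 and Krt23 in each library, by group, with points for libraries and bars for the group mean and SD. All values but 1 lie under 1 TPM. For every gene the cKO and control groups of each line overlap, and so do the control groups of the lines.

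Seen along the chromosome, the readable keratins were not neighbours. The cluster was held as 26 rows from 99232761 to 100261029, of which 12 were keratins, all on the minus strand. The start of Krt20 lay 708 kb from that of Krt19. Among the rows held, Krt15 was the keratin next to Krt19, and Krt10 and Krt23 lay on either side of Krt20. All of these neighbours were under 1 TPM. Keratins of the cluster that are not among the rows could not be placed. Of the other 14 rows, 2 had a mean of at least 1 TPM, namely Gm11560 at 16.2 TPM and Gm11598 at 3.95 TPM. The 5 keratin-associated protein rows, genes of hair, were listed at 0 in every library.

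**Figure D3:**
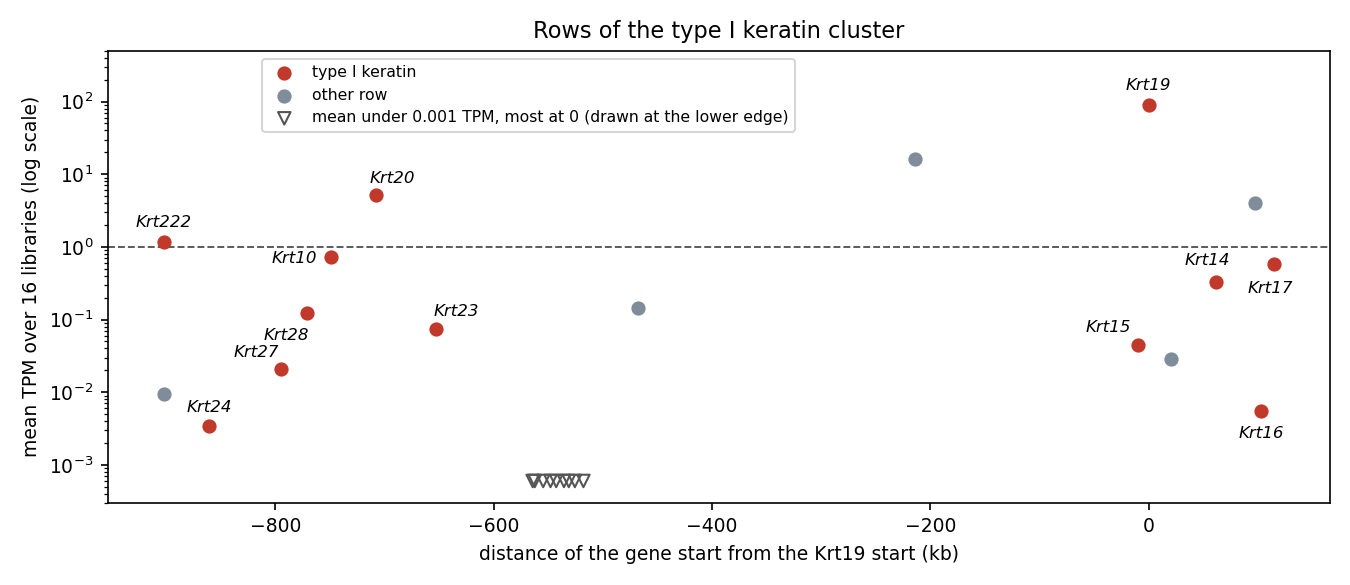
Mean TPM over the 16 libraries (log scale) of each row in the type I keratin cluster, against the distance of its start from the start of Krt19 in kb. The dashed line is 1 TPM. Krt19, Krt20 and Krt222 are the keratins above it.

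Of 21 other type I keratins listed, 5 were among the rows and 1, Krt222, had a mean of at least 1 TPM. Its group means were 0.934 ± 0.116 TPM in the exon 2-3 controls, 0.874 ± 0.174 in their cKO, 1.46 ± 0.352 in the exon 2 controls and 1.39 ± 0.0748 in their cKO (SD, n = 4). In neither line did its cKO pass the test (limma adjusted p 0.858 and 0.999). Between the controls it was lower in the exon 2-3 line, by a log2 difference of -0.34 (SE 0.11, limma adjusted p 0.0186), opposite in direction to Krt19 and Krt20. Krt222 overlaps the row Gm32385 and lies near the limit of 1 TPM. The call was lost after median centring (log2 difference -0.16, limma adjusted p 0.244) and without exon 2-3 control replicate 1 (0.0583) or exon 2 control replicate 1 (0.0765). Krt28 had a mean of 0.124 TPM, and Krt16, Krt24 and Krt27 were listed at 0 in 11 or 12 of the 16 libraries.

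The promoter of Krt20 is shown as that of the keratin with the same direction as Krt19 in the exon 2-3 line. The promoter table used, from RefSeq on GRCm38.p6, held 4 of the 7 keratins, namely Krt10, Krt14, Krt20 and Krt23. The 250 bases before the annotated start of Krt20, minus strand, carry a TATAAA, in capitals, that begins 29 bases before the start.
Krt20, chr11:99438154-99438403: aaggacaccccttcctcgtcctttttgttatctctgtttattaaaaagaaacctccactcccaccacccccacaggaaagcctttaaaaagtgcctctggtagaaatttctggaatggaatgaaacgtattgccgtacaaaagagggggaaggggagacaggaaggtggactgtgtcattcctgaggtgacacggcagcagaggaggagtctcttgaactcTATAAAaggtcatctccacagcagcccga
In windows from 250 bases before to 50 after a start, TATAAA was found on either strand in 13.6% of 32851 promoters. Krt10 also had one, 26 bases before the start used in its promoter entry, and Krt14 and Krt23 had none. The 250 bases before that start of Krt10, 99389365 to 99389614, lie inside the span of its row, 99385254 to 99397449. That start is therefore not the one used for Krt10 in the cluster. The letters TGATGNAA, the core of the composite site that ATF4 is known to bind with C/EBP proteins, were found on either strand in 3.97% of the promoters and in none of these 4 windows. That says only that these letters are not in these windows.

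No other intermediate filament gene that was tested passed in any comparison. Of 16 listed, 4 were held and 2 had a mean of at least 1 TPM. Des, the desmin of muscle filaments, stood at 559 ± 42.0 TPM in the exon 2-3 controls, 520 ± 26.4 in their cKO, 591 ± 48.2 in the exon 2 controls and 594 ± 42.8 in their cKO. Lmnb2, a lamin of the nuclear envelope, stood at 32.1 ± 3.07, 30.8 ± 1.07, 34.2 ± 1.71 and 34.6 ± 3.37 TPM in the same order. Their log2 differences in the exon 2-3 cKO were -0.10 for Des (SE 0.064, limma adjusted p 0.403) and -0.05 for Lmnb2 (SE 0.072, limma adjusted p 0.726). Between the controls Des passed only after quantile normalisation (log2 difference -0.19, limma adjusted p 0.00312). Nefh and Gfap, filament genes of neurons and glia, had means of 0.717 and 0.0469 TPM and were too low to read.

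Of 23 genes of desmosomes and keratin anchoring, 3 were held, and all 3 were tested. Perp, a membrane protein of desmosomes, rose in the exon 2-3 cKO from 64.0 ± 6.36 to 93.2 ± 4.25 TPM, a log2 difference of 0.54 (SE 0.073, limma adjusted p 0.00277), with all 4 cKO libraries above all controls. Jup, the plakoglobin of desmosomes and adherens junctions, was at 38.3 ± 4.41 and 40.8 ± 2.18 TPM (limma adjusted p 0.570). Dst, a linker of filaments to hemidesmosomes and other sites, had a log2 difference of 0.39 (limma adjusted p 0.337) and overlaps 5 other rows. Thus 1 of 3 passed as higher, beside 4.16% of all genes tested. The median log2 difference of the 3 was 0.39, which is that of Dst, beside 0.03 for all genes tested. Without cKO replicate 3, which had 6.87 TPM of Dst, that median was 0.14.

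None of these 3 anchoring genes passed in the exon 2 line. Perp was at 74.3 ± 2.64 TPM in the controls and 66.8 ± 3.51 in the cKO, a log2 difference of -0.15 (SE 0.055, limma adjusted p 0.999). Every cKO library of Perp lay under every control. The share of all genes without overlap in this line is not given, so nothing is read from that separation. Between the controls, all 3 were lower in the exon 2-3 line: Jup by -0.47 (limma adjusted p 0.000238), Perp by -0.22 (0.0101) and Dst by -2.43 (4.61e-08). Of all 2620 genes tested, 999 passed as lower there. After centring on the library median, the difference of Perp was -0.04 and its call was lost (limma adjusted p 0.577). The direction of these 3 genes between the controls was opposite to that of Krt19 and Krt20.

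Markers of other cell types were read beside the keratins. These lists, like those of filament and anchoring genes above, were chosen with earlier results of these data known. The p-values of their genes are therefore a description. Of 18 epicardial or mesothelial markers 1 was held, Tcf21, a transcription factor of epicardium-derived cells. It rose from 35.4 ± 3.49 TPM in the exon 2-3 controls to 57.9 ± 3.71 in the cKO (log2 difference 0.70, SE 0.078, limma adjusted p 0.000969), and no library overlapped. Tcf21 in the exon 2 line was at 41.8 ± 4.06 and 42.2 ± 2.74 TPM (log2 difference 0.02, limma adjusted p 0.999). The row Gm10824 overlaps Tcf21.

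Of 22 epithelial markers 5 were held, and none was at 0 in all libraries. Their summed TPM had a median of 67.6 in the exon 2-3 controls (58.7 to 72.5) and 95.8 in the cKO (92.4 to 103), without overlap. The median in the exon 2 line was 78.1 in the controls (75.6 to 81.9) and 71.2 in the cKO (66.9 to 73.8), without overlap in the opposite direction. No share of genes without overlap is given for this line, so nothing is read from its separation. Without Perp, the most abundant of them, the medians were 2.64 (2.27 to 2.90) and 3.44 (3.13 to 4.36) in the exon 2-3 line and 4.13 (3.95 to 4.48) and 3.87 (3.37 to 4.84) in the exon 2 line. The exon 2 groups thus overlapped once Perp was left out. The 3 markers tested were Perp, Lad1 and Lamb3. Perp is the gene already counted among the anchoring genes. Lad1 is a protein of the basement membrane zone, and Lamb3 is a laminin chain of epithelial basement membrane. All 3 had positive differences in the exon 2-3 cKO, with a median of 0.29, and 1, Perp, passed. Of all genes tested, 4.16% passed as higher there. Lamb3 was at 0.764 ± 0.0631 TPM in the controls and 1.15 ± 0.0550 in the cKO (SD, n = 4), a log2 difference of 0.29 (SE 0.098, limma adjusted p 0.120), and passed with no filter on low values (limma adjusted p 0.0406). Of the 3 markers 1 was positive in the exon 2 cKO and none passed, with a median of -0.08.

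Between the controls all 3 epithelial markers tested were lower in the exon 2-3 line and passed, with a median of -0.32, while Krt19 and Krt20 were higher there. Of all 2620 genes tested, 999 passed as lower in this comparison, with a median of -0.14, so a lower call is common. After median centring none of the 3 markers passed, and their median was -0.14. The call of Lad1 (log2 difference -0.40, limma adjusted p 0.0360) was also lost with no filter, with quantile normalisation and without any one of exon 2-3 control replicates 1, 2 and 3 or exon 2 control replicates 2 and 3 (limma adjusted p 0.0607 to 0.1001). Tcf21 was also lower between the controls, by -0.23 (limma adjusted p 0.0215). That call was lost with no filter, quantile normalisation or median centring and without exon 2-3 control replicate 2 or exon 2 control replicate 1. The 6 cardiomyocyte markers summed to a median of 17818 TPM in the exon 2-3 controls, 16907 in their cKO, 13285 in the exon 2 controls and 13326 in their cKO. Between the controls 4 of the 6 passed as higher in the exon 2-3 line, the direction of Krt19 and Krt20, with a median of 0.24 over the 6. These were the troponins Tnnt2 (0.74) and Tnni1 (0.66) and the myosin light chains Myl7 (0.25) and Myl4 (0.23). With no filter, or after quantile normalisation, 2 of the 6 passed. Of all genes tested, 14.4% passed as higher in this comparison. Of these 6 markers 1, Hand1, passed as lower in the exon 2-3 cKO (log2 difference -0.60, limma adjusted p 0.00573). Of all 2620 genes tested, 67 passed as lower there. Tnni1 went from 3058 ± 216 to 2395 ± 563 TPM in that line and did not pass (log2 difference -0.39, limma adjusted p 0.213). The differences of 2 of the 6 markers were positive there, and their median was -0.04. The part of cell composition in the keratin values was not tested.

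**Figure D4:**
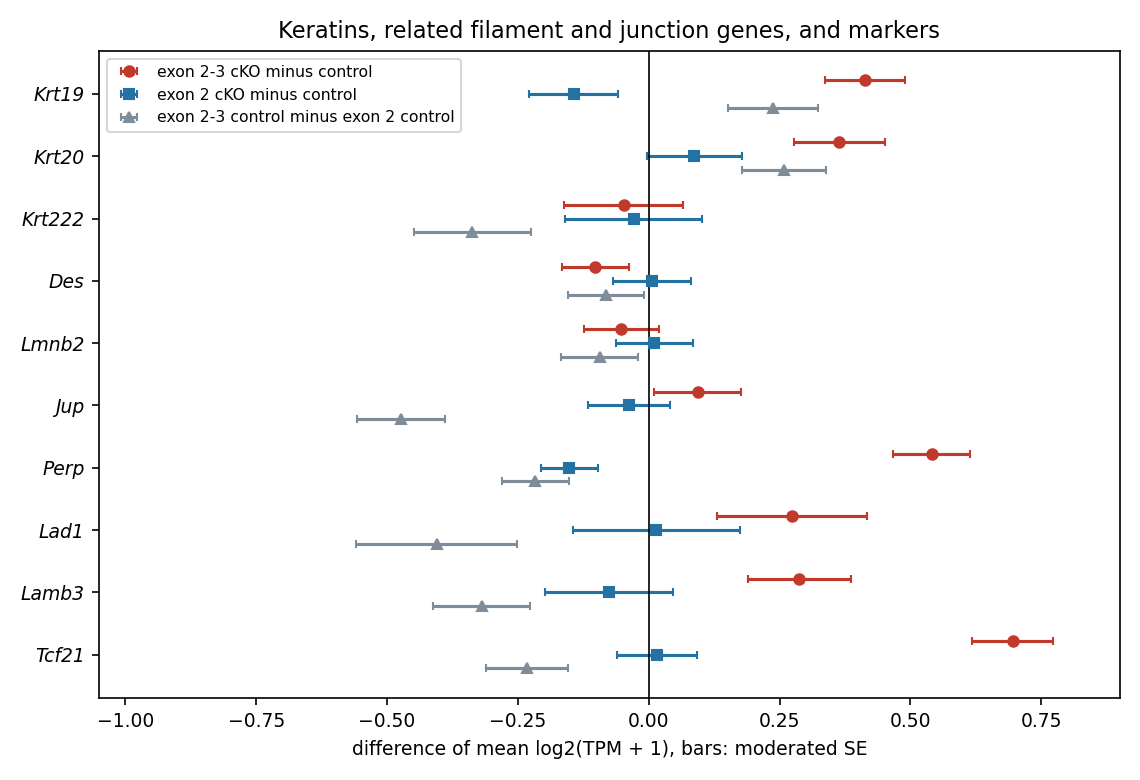
Difference of mean log2(TPM + 1), with bars for the moderated SE, for the readable keratins, filament and junction genes, Lad1, Lamb3 and Tcf21 in the 3 comparisons. Krt19, Krt20, Perp and Tcf21 lie at 0.36 to 0.70 in the exon 2-3 cKO, and of the 10 genes drawn Krt19 and Krt20 lie above 0 between the controls, where Des and Lmnb2 do so too after median centring (0.10 and 0.09).

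Across the 16 libraries, after subtraction of each line's mean, the log2 values of Krt19 and Krt20 correlated at Pearson's r = 0.79. The points share their library and the shift between cKO and control, and r is given as a description. The genes most like Krt19 were E230014E18Rik (r = 0.89), Cdc34, a ubiquitin-conjugating enzyme (r = 0.88), and Palm, a membrane-bound phosphoprotein (r = 0.87). Those most like Krt20 were Srgap1, a regulator of small GTPases (r = 0.89), Fn1, the matrix protein fibronectin (r = 0.86), and Col18a1, a basement membrane collagen (r = 0.85). Fn1 went from 366 to 629 TPM and Col18a1 from 192 to 273 TPM between the exon 2-3 controls and cKO. Cdc34 went from 169 to 216 TPM there. The exon 2 line had 635 and 695 TPM for Fn1, 262 and 281 TPM for Col18a1 and 156 and 150 TPM for Cdc34. Tcf21 correlated with Krt19 at r = 0.73 and with Krt20 at r = 0.76 over the same 16 libraries.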

How the data were processed

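The authors deposited 1 table of TPM values for the 16 libraries. The submitters' processing notes name Trim Galore 0.6.7, HISAT2 2.2.1, StringTie 2.2.1, featureCounts and GRCm38, with no role or order, so the program that made the TPM values, and whether counting used the strand, are not given in the sources used here. One label text describes stranded mRNA libraries and another ribosomal RNA depletion. Gene coordinates equalled RefSeq on GRCm38.p6 for 5919 of 5921 rows, and 1 incomplete last line was left out. Genes with a mean of at least 1 TPM over the 16 libraries (2620) were tested on log2(TPM + 1) with limma 3.58.1 in R 4.3.3 (eBayes, trended prior variance), two-sided, with Benjamini-Hochberg adjustment over all of them and a threshold of 0.05. The fit for a line used only its 8 libraries, and the controls were compared in a group means model over all 16. The procedure was tested on simulated data.

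The keratins and the gene lists were chosen with earlier results of these data known. The genes named are the 7 keratins, every listed gene held with a mean of at least 1 TPM, the 3 genes most correlated with each readable keratin and the cell type markers, some of which are not reported here. Nefh, Gfap, Krt28, Krt16, Krt24, Krt27 and the other cluster rows were named after their values were seen. Alternatives were a pseudocount of 0.1, no filter, a minimum of 5 TPM, quantile normalisation, library median centring, a replicate block and leaving out each library in turn. Promoters came from RefSeq. Coding lengths, exons and shared 31-base stretches came from GENCODE M21, for the longest protein-coding transcript of each keratin. Python 3.11.15 with pandas 2.3.3 wrote the tables, and matplotlib 3.10.9 drew the figures.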

Additional observations from a re-analysis of the deposited data

Results flagged for a closer look

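Among 30 genes read, in 115 groups of 4 libraries, 12 groups had 1 library far from the other 3 by Dixon's criterion, which chance meets in about 1 in 20 groups. Of the 7 keratins only Krt15 had such groups, the exon 2-3 controls (highest 0.178 TPM) and the exon 2 controls (highest 0.0770 TPM, the other 3 at 0). Of the other type I keratins, Krt222 had one in the exon 2 controls (highest 1.98 TPM), Krt27 in the exon 2-3 cKO (highest 0.0694 TPM), Krt24 in the exon 2 cKO (highest 8e-05 TPM) and Krt16 in the exon 2-3 controls (lowest 0 TPM). Des had one in the exon 2 cKO (lowest 530 TPM) and Dst in the exon 2-3 cKO (highest 6.87 TPM). The epithelial marker Cldn7 had one in the exon 2-3 cKO (highest 0.468 TPM) and in the exon 2 cKO (lowest 0.373 TPM). The cardiomyocyte marker Tnni1 had one in the exon 2-3 cKO (lowest 1556 TPM) and in the exon 2 cKO (highest 2265 TPM). The cKO difference of Perp had opposite signs in the lines. All exon 2-3 cKO libraries lay above their controls, with a log2 difference of 0.54 (limma adjusted p 0.00277). All exon 2 cKO libraries lay below theirs, with -0.15, which did not pass (limma adjusted p 0.999). The share of all genes without overlap in the exon 2 line is not given here, so nothing is read from that separation. The difference between the lines was not tested.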

How the results depend on the processing

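In the exon 2-3 line the 176 genes called became 87 with no filter on low values, 311 after quantile normalisation and 343 after median centring, and ranged from 70 to 190 with 1 library left out. In the exon 2 line the 2 genes called became 2 to 4 with 1 library left out. Between the controls the 2 readable keratins called became 1 with no filter and ranged from 1 to 2 with 1 library left out. The log2 difference of Krt19 there was 0.24 with no filter, where its call was lost, and ranged from 0.19 to 0.29 with 1 library left out. The cause of these changes was not tested, except that no filter tests more genes and leaving out a library uses fewer samples. The labels do not say whether a replicate number pairs a cKO library with a control. For exon 2-3, deviations of same-numbered cKO and control libraries correlated at -0.03 to 0.21, and 2 of 8 libraries correlated best with their own number. For exon 2, these correlations were all positive, from 0.06 to 0.20, and 7 of 8 libraries correlated best with their own number. Whether same-numbered libraries share a litter was not tested. With the replicate number as a block, 149 genes were called in the exon 2-3 line, 2 genes in the exon 2 line and 1305 genes between the controls, where the call of Lad1 was lost. With a pseudocount of 0.1, 9 differences of the low keratins moved by more than the replicate SD. A minimum of 5 TPM gives no value for Krt222, Lad1, Lamb3 or the low keratins. The depth behind each TPM value is unknown.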
